A study of Mus musculus with 41 samples.

Results

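Nnt encodes nicotinamide nucleotide transhydrogenase and was followed here as a single gene, 1 of the 19434 in a count table of 41 libraries from sorted mouse CD4 T cells. It was taken as the row with the symbol Nnt (ENSMUSG00000025453). It was singled out because its level was lower in Uhrf1-floxed ex-Foxp3 cells than in their controls, so its values in those cells, and every contrast that contains them, are given as a description, with no test. The gene lies on the minus strand of chromosome 13 at chr13:119335448-119408997 (mm10, GRCm38), a span of 73550 bp. The table gives a single count per library for this row, and how reads were assigned to it was not given. The GENCODE M21 annotation of this build holds 2 gene entries named Nnt at this place with 6 transcripts, 4 of them protein coding with 14 to 17 exons, and 0 genes of another name overlap it on either strand.

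The NNT protein sits in the inner mitochondrial membrane and uses the proton gradient across it to make NADPH from NADH. Mitochondrial NADPH feeds the glutathione and thioredoxin systems, which remove peroxides. The reference mouse strain, C57BL/6J, is known to carry a deletion of several Nnt exons, whereas related strains such as C57BL/6N carry the intact gene. Reads from exons that the reference genome lacks could not have been counted. The labels name no strain background for the mice, and which allele each mouse carried was not tested, since a single count per gene cannot tell them apart.

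The libraries came from 2 experiments on UHRF1, the adaptor that brings maintenance DNA methylation to newly copied DNA, in regulatory T (Treg) cells, which depend on the transcription factor Foxp3. In the chimera experiment, CD25-high YFP-positive Treg cells were sorted from 8-week-old female mice: 4 knockout libraries from Uhrf1fl/flFoxp3+/YFP-Cre mice and 4 control libraries from Uhrf1+/+Foxp3YFP-Cre/YFP-Cre mice. The knockout mice carry Cre on only one of their X chromosomes, so they also hold Treg cells with functional Uhrf1, while all Treg cells of the controls carry Cre. In the pulse-chase experiment, 6 floxed mice (Uhrf1fl/flFoxp3GFP-CreERT2Rosa26SorCAG-tdTomato, also named iUhrf1fl/fl) were set against 5 Uhrf1+/+ controls that carried the same tamoxifen-dependent Cre, GFP and tdTomato alleles. All pulse-chase mice received tamoxifen chow for 2 weeks and then standard chow for 4 weeks, and their age is given as 8 weeks. Each gave 3 sorted populations. Labeled Treg cells (GFP+tdTomato+) had Cre activity and still expressed Foxp3, ex-Foxp3 cells (GFP–tdTomato+) had Cre activity and had lost it, and post-tamoxifen Treg cells (GFP+tdTomato–) expressed Foxp3 but carried no mark of Cre activity. In both experiments Cre was driven by Foxp3, and the floxed allele itself was present in every cell of the floxed mice.

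Total counts ran from 2403189 to 5709702 per chimera library and from 781437 to 3435802 per pulse-chase library. Uhrf1, the targeted gene, was at 24.9 ± 4.82 CPM (TMM-scaled read counts relative to library size; SD, n = 4) in chimera controls, between 22.1 and 32.1. The chimera knockouts held 8.64 to 22.2 CPM, and the library labelled knockout 4 was the highest of them and within the control range. In the pulse-chase libraries Uhrf1 was at 19.4 ± 10.3 in control and 16.7 ± 7.76 in floxed ex-Foxp3 cells, and at 50.7 ± 38.3 and 46.3 ± 34.4 in labeled cells (n = 5 and 6). In post-tamoxifen cells floxed libraries 1 to 3 held 151, 124 and 156 CPM of Uhrf1, and floxed 4 to 6 held 18.9, 33.6 and 27.1. The latter lay within the control range of 13.7 to 59.6 CPM (median 22.2). Labeled cells split by the same numbers: floxed 1 to 3 held 88.6, 69.3 and 73.0 CPM and floxed 4 to 6 held 10.4, 17.2 and 19.0. Labeled controls 1 to 3 held 59.3, 63.3 and 104 CPM, and controls 4 and 5 held 15.4 and 11.4. What lay behind this split by number was not tested. The ranges overlapped in all 3 populations, so whole-gene counts did not check the genotype labels there. Foxp3 was at 109 ± 29.5 CPM in control and 61.2 ± 38.3 in floxed ex-Foxp3 cells, against 407 ± 16.5 and 381 ± 66.0 in labeled cells (n = 5 and 6). Post-tamoxifen libraries, sorted as GFP-positive, held 287 to 537 CPM of Foxp3 except control 2 at 123 and floxed 3 at 128, which went against their labels by lying within the range of control ex-Foxp3 cells, 79.5 to 152 CPM. Their summed Treg genes stood at 328 and 415 CPM, against 809 to 1477 in the other post-tamoxifen libraries. Sums of marker genes, here and below, are CPM of total counts without TMM scaling. Reads of 4 Y-linked genes summed to 318 to 455 CPM in the 6 libraries of pulse-chase controls 2 and 3 and to 430 CPM in chimera control 1, an experiment described as using females, and to at most 2.33 CPM in the other 34 libraries. The sum of the T cell genes Cd3e and Cd4 was between 1226 and 1942 CPM in every library. In bulk RNA, a smaller share of expressing cells and less RNA per cell cannot be told apart.

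In the chimera, Nnt stood close together in the 2 genotypes. The control libraries 1 to 4 held 56.7, 58.0, 69.3 and 64.9 CPM of Nnt, and the knockout libraries 1 to 4 held 64.0, 58.9, 56.7 and 50.4 CPM. The ranges overlapped: 3 of the 4 knockout libraries lay at or above the lowest control. The fold change between knockout and control was -0.11 ± 0.12 on the log2 scale (SE; 95% interval -0.37 to 0.14), which did not pass the test (edgeR quasi-likelihood, adjusted p = 0.787, against a background of 2.41% of the 9569 genes tested that did). An exact two-sided permutation test of the 8 libraries gave p = 0.343, where the smallest p the design allows is 0.0286. Without the library labelled knockout 4 the difference was -0.05 (adjusted p = 0.926), without chimera control 1 it was -0.15 (adjusted p = 0.749), and without chimera controls 3 and 4, which held 56.0 and 62.2 CPM of summed B cell genes against 5.44 to 12.5 in the other chimera libraries, it was 0.0047 (adjusted p = 0.996). Over these and the 5 alternatives of scaling, filter, tool, block and fit, the adjusted p ran from 0.74 to 0.996.

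In ex-Foxp3 cells, the population that singled the gene out, floxed mice had less than the control level of Nnt in every library. The control libraries 1 to 5 held 66.0, 52.5, 58.1, 48.0 and 62.1 CPM of Nnt. The floxed libraries had a lowest value of 18.1, a median of 24.0 and a highest value of 29.2 CPM (n = 6). The highest floxed library thus lay well under the lowest control. The fold change was -1.26 ± 0.15 on the log2 scale (95% interval -1.56 to -0.95), a ratio of 0.419. Because the gene was chosen on this contrast, no test is given. For scale, 0.181% of the 9921 genes tested were called in it and 1.26% had every floxed library below every control, and nothing is read from either share.

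Labeled Treg cells, which kept Foxp3 after Cre activity, also held less Nnt in every floxed library than in any control library. The control libraries 1 to 5 held 46.1, 55.3, 56.0, 58.6 and 37.5 CPM of Nnt, and the floxed libraries ran from 26.5 over a median of 31.6 to 35.3 CPM (n = 6). The groups did not overlap, which was so, with floxed below control, for 0.796% of the genes tested. Nnt differed by -0.70 ± 0.15 on the log2 scale (95% interval -1.01 to -0.40), a ratio of 0.615. Its unadjusted p of 3.71e-05 was the 4th smallest of 9921, and it missed the threshold after adjustment over all of them (edgeR, adjusted p = 0.0617, background 0.0101%). The call depended on the processing. The same libraries gave an adjusted p of 0.00888 with DESeq2 (-0.69), and edgeR gave 0.0195 when all 41 libraries were fitted together (-0.70) and 0.0353 without control labeled library 5 (-0.77), the shallowest of these controls in Nnt reads. Without control mice 2 and 3, whose libraries held Y-linked reads, the difference was -0.60 with an adjusted p of 0.416, and over the 7 alternatives other than single left-out libraries the adjusted p ran from 0.00888 to 0.416.

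Post-tamoxifen Treg cells carried the floxed allele without the mark of Cre activity, and Nnt fell in floxed mice there too. The control libraries 1 to 5 held 50.7, 41.5, 56.8, 53.9 and 52.7 CPM of Nnt. The floxed libraries ran from 18.7 over a median of 28.7 to 36.5 CPM (n = 6). The groups did not overlap, as for 1.71% of the genes tested. The fold change was -0.86 ± 0.15 on the log2 scale (95% interval -1.17 to -0.55), a ratio of 0.550, and passed the test (edgeR, adjusted p = 0.000671, background 7.23% in either direction and 3.33% lower). Summed myeloid genes varied widely in this population, from 12.7 to 292 CPM in controls and from 45.0 to 427 CPM in floxed libraries, against at most 21.5 CPM in the other pulse-chase populations. The library with the highest myeloid sum, floxed 3, was also the one lowest in Nnt, and the control with the lowest myeloid sum, control 2, was the control lowest in Nnt. These are the 2 libraries with low Foxp3. Without these 2 libraries the Nnt difference was -0.82 (edgeR, adjusted p = 0.000842), and without control mice 2 and 3 it was -0.89 (adjusted p = 0.00464), with 4.31e-05 to 0.0289 over 8 alternatives. The labeled and post-tamoxifen libraries probably came from the same mice as the ex-Foxp3 libraries that singled out Nnt, so their differences are not independent of that choice, whereas the chimera used other mice.

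**Figure D1:**
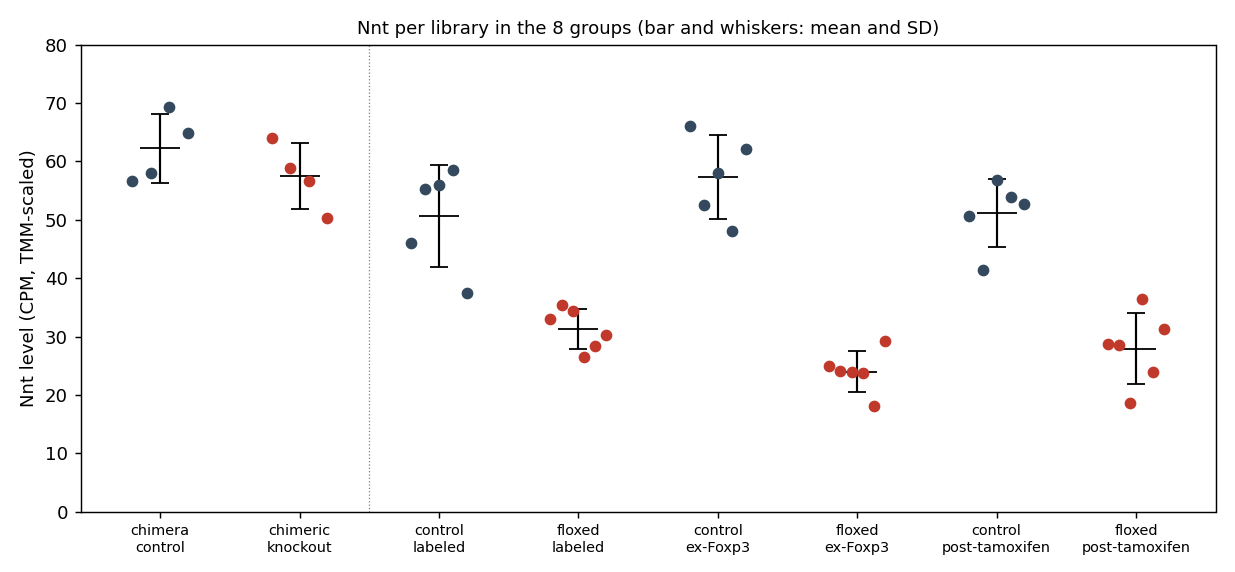
Nnt level (CPM, TMM-scaled) in each library of the 8 groups, with points for libraries and bars and whiskers for the group mean and SD. The floxed pulse-chase libraries sit between 18.1 and 36.5 CPM, below the control pulse-chase libraries at 37.5 to 66.0 CPM, while the chimera knockouts at 50.4 to 64.0 CPM overlap their controls.

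Over the 3 populations together, the 18 floxed libraries ran from 18.1 to 36.5 CPM of Nnt and the 15 control libraries from 37.5 to 66.0 CPM. Nnt was the 1 gene of the 9921 tested (0.0101%) for which every floxed pulse-chase library lay below every control library, and for 0 genes did every floxed library lie above. Part of this separation is the ex-Foxp3 contrast on which Nnt was chosen. The margin was narrow at one place. Floxed post-tamoxifen library 4 stood at 36.5 CPM (79 reads, 95% exact Poisson interval 28.9 to 45.5 CPM) and control labeled library 5 at 37.5 CPM (43 reads, 27.2 to 50.6 CPM), so their order is within counting error. These intervals cover counting error only. The floxed libraries held 27 to 81 Nnt reads each and the pulse-chase controls 40 to 213.

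Ordered by mean level, the groups began with chimera controls at 62.2 ± 5.95 CPM of Nnt (SD, n = 4), chimera knockouts at 57.5 ± 5.66 (n = 4) and control ex-Foxp3 cells at 57.4 ± 7.23 (n = 5). Control post-tamoxifen cells followed at 51.1 ± 5.82 and control labeled cells at 50.7 ± 8.73 (n = 5 each). The floxed populations closed the order, with labeled cells at 31.3 ± 3.50, post-tamoxifen cells at 28.0 ± 6.13 and ex-Foxp3 cells at 24.0 ± 3.54 (n = 6 each). Library ranges of neighbours in this order overlapped except at 1 step, from control labeled to floxed labeled cells, where the means were 19.4 CPM apart. The chimera and pulse-chase libraries are separate experiments, so the order across them is a description.

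The question of whether the genotype difference in Nnt was of the same size in every population was put to contrasts of the differences. Between post-tamoxifen and labeled cells the contrast was -0.16 ± 0.22 on the log2 scale (95% interval -0.60 to 0.27), which did not pass (edgeR, adjusted p = 0.879, background 0.0202%). Its interval allows the difference to be larger in either population. Against the labeled difference, that in ex-Foxp3 cells stood at -0.55 ± 0.21, and against the post-tamoxifen difference at -0.39 ± 0.21. Both of these contain the values on which Nnt was chosen, so they are given with no test.

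**Figure D2:**
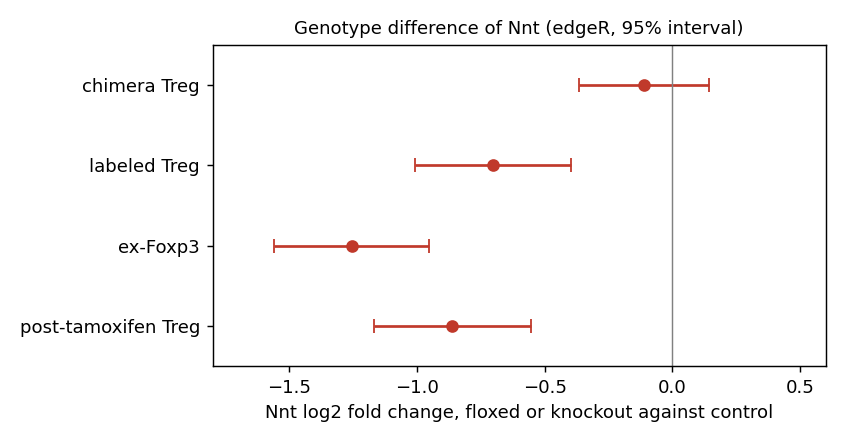
Nnt log2 fold change of floxed or knockout against control (horizontal axis) in the chimera and the 3 pulse-chase populations, with 95% intervals from the edgeR fits. The chimera interval, -0.37 to 0.14, crosses 0, and the labeled and post-tamoxifen intervals lie below it. The labeled difference still missed the threshold after adjustment over all genes (edgeR, adjusted p = 0.0617). The ex-Foxp3 interval is drawn as a description, since Nnt was chosen on that contrast.

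The chimera difference was set against each pulse-chase difference in a fit of all 41 libraries and 10153 genes. A positive contrast here means that Nnt lay less far below control in the chimera (-0.11) than in the pulse-chase population. Against the labeled difference (-0.70) the contrast was 0.59 ± 0.21 on the log2 scale (95% interval 0.18 to 1.01), which did not pass (edgeR, adjusted p = 0.181, background 1.03%). Against the post-tamoxifen difference (-0.86) it was 0.75 ± 0.21 (0.33 to 1.17; adjusted p = 0.0208, background 6.21%). This call was lost without chimera control 1 (adjusted p = 0.0536), chimera knockout 1 (0.0687) or control post-tamoxifen library 3 (0.0576). Against ex-Foxp3 cells the contrast was 1.15 ± 0.21, given with no test because the ex-Foxp3 side was chosen for its size. The experiments also differed in Cre allele, tamoxifen and mice, and these cannot be told apart from the size of the Nnt difference.

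Libraries of the same genotype and number were read as 1 mouse. The labels do not state this, but Y-linked reads marked all 3 libraries of controls 2 and 3 and no other pulse-chase library. Averaged over the 3 populations, the control mice 1 to 5 held 54.3, 49.7, 56.95, 53.5 and 50.8 CPM of Nnt (53.0 ± 2.87, SD, n = 5). The floxed mice had means from 23.4 to 30.3 CPM (27.8 ± 2.63, n = 6). Means per mouse therefore lay much closer within a genotype than the genotypes lay apart, and the control mice with Y-linked reads had both the lowest and the highest control mean. These means include the ex-Foxp3 values on which Nnt was chosen, so the gap between genotypes is partly fixed by that choice.

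Within floxed mice, Nnt in ex-Foxp3 cells was below labeled cells in 6 of 6 mice and below post-tamoxifen cells in 5 of 6. Within control mice it was below labeled cells in 2 of 5 and below post-tamoxifen cells in 1 of 5. Ex-Foxp3 cells held the lowest Nnt of the 3 populations in 5 floxed mice and 1 control mouse, and the highest in 0 floxed and 3 control mice. The within-mouse log2 difference between ex-Foxp3 and labeled cells averaged -0.38 ± 0.23 (SD, n = 6) in floxed and 0.19 ± 0.42 (n = 5) in control mice. The genotypes thus differed by -0.57 in this measure, and by -0.36 for ex-Foxp3 against post-tamoxifen cells. Floxed ex-Foxp3 cells were low by the choice of the gene, so these orders and differences are a description. For post-tamoxifen against labeled cells, which the choice did not use directly, the genotypes differed by -0.20, and an exact two-sided permutation test over the 462 arrangements of 11 mice gave p = 0.413.

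**Figure D3:**
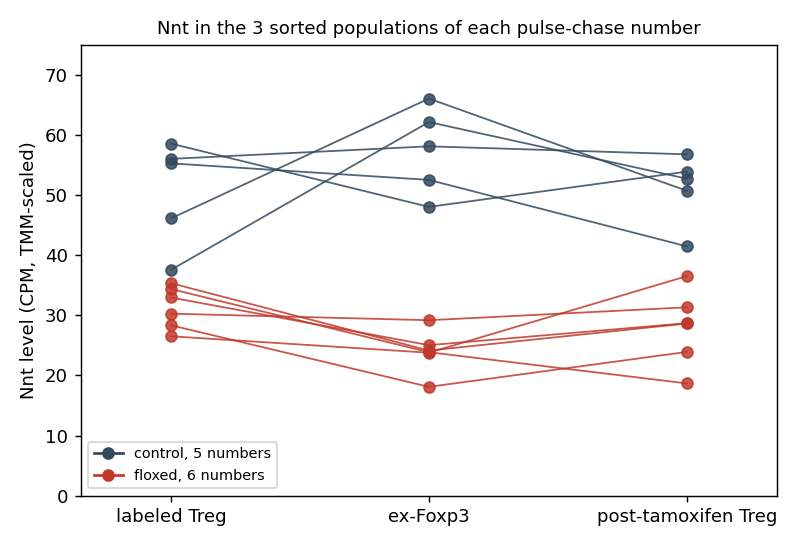
Nnt level (CPM, TMM-scaled) in the 3 sorted populations, with libraries of the same genotype and number joined by a line (5 control and 6 floxed). Every floxed line drops from labeled to ex-Foxp3 cells, and 2 of the 5 control lines do.

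Within a genotype, the populations lay closer together. Nnt of control labeled and post-tamoxifen cells differed by less than 0.01 on the log2 scale (edgeR, adjusted p = 1.0, background 7.93%). Floxed labeled cells were at 0.16 ± 0.15 against post-tamoxifen cells (adjusted p = 0.669, background 4.58%). Neither passed. The contrasts with ex-Foxp3 cells are given with no test. In controls, ex-Foxp3 cells were 0.17 ± 0.15 above labeled and 0.17 ± 0.15 above post-tamoxifen cells. In floxed mice they were at -0.39 ± 0.15 against labeled and at -0.23 ± 0.15 against post-tamoxifen cells.

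The genes beside Nnt on chromosome 13 were read to see whether they moved with it. Paip1, a binding partner of poly(A)-binding protein, is the nearest tested gene, 19604 bp away, and its log2 fold changes were 0.16 in the chimera, -0.14 in labeled, 0.02 in ex-Foxp3 and 0.02 in post-tamoxifen cells. On the other side, Mrps30, a mitochondrial ribosomal protein gene, was at 0.06, 0.13, -0.08 and 0.14 in the same order. Emb, encoding the membrane glycoprotein embigin, was at -0.11, 0.03, 0.13 and 0.13. All of these lay nearer to 0 than the pulse-chase differences of Nnt, of which that in ex-Foxp3 cells was the one it was chosen on. Parp8, an ADP-ribosyltransferase gene, was at -0.09, -0.53, -0.08 and -0.44. Hmgcs1, of the cholesterol pathway, was at 0.44, -0.37, -0.20 and 0.06. The unnamed gene AC241593.1 was at -0.26, -0.48 and -1.31 in labeled, ex-Foxp3 and post-tamoxifen cells and was too low to be tested in the chimera. None of the 6 passed the test in any of the comparisons in which it was tested.

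Within 5 Mb of Nnt, 13 genes were tested in the pulse-chase fit and 10 in the chimera. By edgeR, 0 of 13 passed in labeled, in ex-Foxp3 and in post-tamoxifen cells, with 2, 0 and 1 at an unadjusted p under 0.05, and DESeq2 also called 0 in each. Their median log2 fold changes were -0.13, -0.06 and 0.09, beside 0.00, 0.00 and 0.01 over all genes tested. In the chimera 1 of the 10 passed (10%), the zinc finger gene Zfp131, which rose by 0.47 ± 0.13 (edgeR, adjusted p = 0.0490, beside 0.857% of all genes called higher), and the median was 0.15.

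Over all of chromosome 13 apart from Nnt, edgeR called 0 of 410 genes in labeled cells (34 at an unadjusted p under 0.05, and 1 by DESeq2), 1 in ex-Foxp3 cells (0.244%) and 39 in post-tamoxifen cells (9.51%, 20 higher and 19 lower). The 1 gene of ex-Foxp3 cells was Dapk1, a calmodulin-dependent kinase gene 58.57 Mb from Nnt, at -2.78, and it is named after its value was seen. In the chimera 9 of 371 passed (2.43%, 4 higher and 5 lower, beside 1.56% of all genes called lower). Among them Naip5, Naip6 and Naip2, sensors of bacterial flagellin and secretion proteins about 19 Mb from Nnt, fell by 2.59, 2.02 and 1.49 on the log2 scale, though reads of these near-identical copies may be split uncertainly. Ryr2, a calcium channel gene, fell by 2.22, and Pik3r1 and Cast rose by 0.34 and 0.30. The chromosome's called shares stood beside 0.0101%, 0.181%, 7.23% and 2.41% over all genes in labeled, ex-Foxp3, post-tamoxifen and chimera cells. Uhrf1 lies on chromosome 17 and Foxp3 on the X chromosome. The position of the tdTomato allele was not examined, and linkage of Nnt to an engineered allele was not tested.

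**Figure D4:**
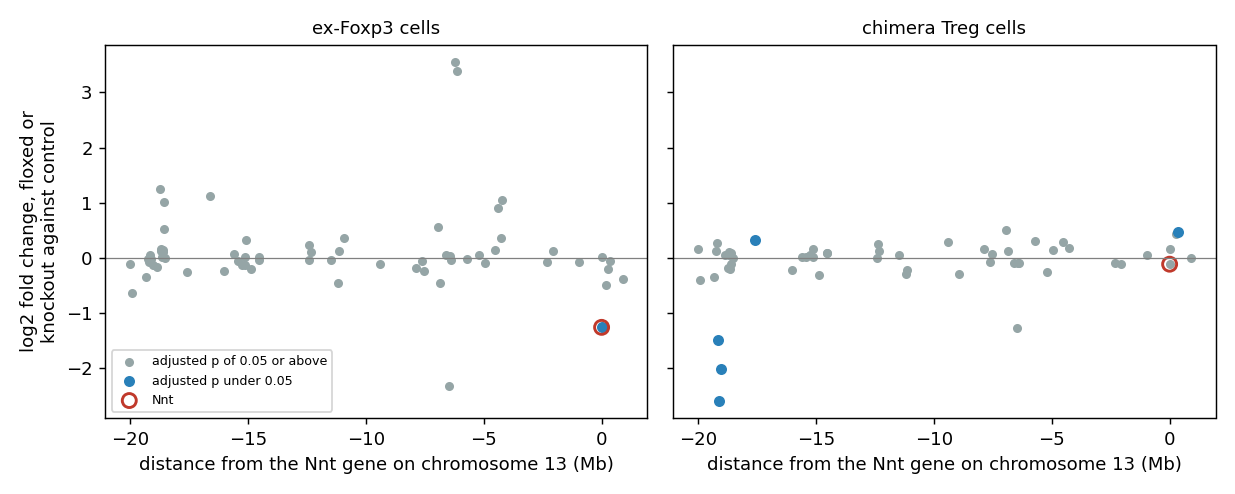
Log2 fold change of floxed or knockout against control for tested genes around Nnt, by distance from the Nnt gene on chromosome 13 (Mb), in ex-Foxp3 cells and in the chimera. Nnt stands at -1.26 in ex-Foxp3 cells, the contrast on which it was chosen, and at -0.11 in the chimera. Paip1, 19604 bp away, stands at 0.02 and 0.16.

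Other enzymes that make NADPH, or act beside those that do, were described from a list of 19, of which 14 were tested in the chimera and 15 in the pulse-chase fit. They are called NADPH source genes here, though not every member makes NADPH itself. Called by edgeR were 0 in each of the 4 comparisons, and 0 by DESeq2, with 2, 3, 0 and 4 at an unadjusted p under 0.05 in chimera, labeled, ex-Foxp3 and post-tamoxifen cells. Their medians were 0.12, 0.03, -0.07 and 0.07 on the log2 scale in that order. The most abundant members were Glud1, the mitochondrial glutamate dehydrogenase, at 0.03, -0.02, 0.00 and 0.20, and Nadk, the cytosolic kinase that makes NADP, at 0.09, 0.10, -0.07 and -0.06. The lowest value of the list in labeled cells was that of Aldh4a1, a mitochondrial dehydrogenase of proline breakdown, at -0.80 (edgeR, adjusted p = 0.303), which is named after its value was seen. In ex-Foxp3 cells the listed enzymes ran from -0.45 to 0.13, where Nnt was at -1.26. Nnt was chosen on its value there, so nothing is read from this gap.

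The peroxide and glutathione defence, which uses NADPH, was described from 29 listed genes, 25 of them tested in the chimera and 26 in the pulse-chase fit. EdgeR called 0 in the chimera, in labeled and in ex-Foxp3 cells (1, 1 and 3 at an unadjusted p under 0.05; 0 by DESeq2), with medians of -0.03, 0.01 and 0.05. In post-tamoxifen cells 4 of 26 rose (15.4%, beside 3.9% of all genes that were called higher) and 0 fell, with a median of 0.18. Glrx, the cytosolic glutaredoxin, rose by 1.62 (edgeR, adjusted p = 0.00112), and Prdx1, a peroxide-removing peroxiredoxin, by 0.67 (0.00584). Txn1, thioredoxin, rose by 0.61 (0.0396) and Txnrd1, the reductase that recharges it with NADPH, by 0.43 (0.0438). Of the 4 calls, 2 were left without the expression filter and 2 with a replicate block, and DESeq2 made 6. Summed myeloid genes had a median of 98.7 CPM in these floxed libraries and 135 CPM in their controls, and floxed 3, at 427, was the 1 floxed library above the control maximum of 292. The part of those cells in this rise was not tested.

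**Figure D5:**
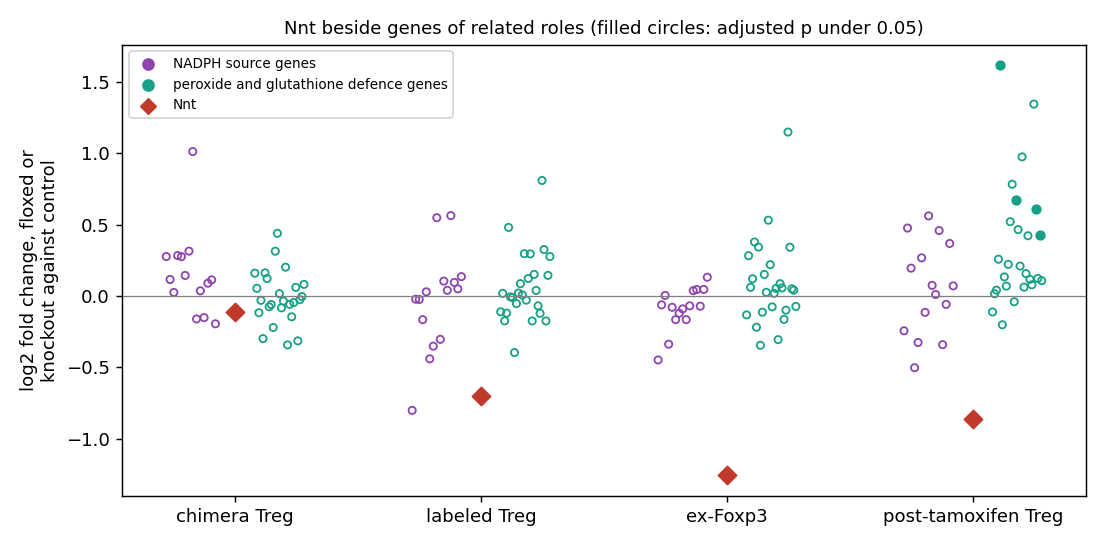
Log2 fold change of floxed or knockout against control for Nnt, the listed NADPH source genes and the listed peroxide and glutathione defence genes in the 4 comparisons. In ex-Foxp3 cells the NADPH source genes lie between -0.45 and 0.13, and Nnt, which was chosen on its value there, lies at -1.26. In post-tamoxifen cells 4 defence genes were called higher.

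Nnt is one of several genes known to differ between C57BL/6 substrains, so the others were read as well. Of 9 listed, 3 were expressed enough to test. A difference in sequence need not change the RNA level, so these levels do not tell the substrain of the mice, which was not tested. Wdfy1, an endosomal protein gene, was at -0.21 in the chimera and at 0.50, 0.48 and 0.74 in labeled, ex-Foxp3 and post-tamoxifen cells. Ide, the insulin-degrading enzyme, was at -0.27, -0.28, -0.22 and -0.05. Cyfip2, of the actin-regulating WAVE complex, was at -0.11, 0.04, 0.05 and 0.13. EdgeR and DESeq2 called 0 of the 3 in every comparison, with 1 at an unadjusted p under 0.05 in the chimera and 1 in post-tamoxifen cells, Wdfy1 (edgeR, adjusted p = 0.0705).

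The genes most like Nnt were ranked by Pearson's r of log2 levels over the 33 pulse-chase libraries, among 7059 well expressed genes. These libraries share mice, genotype and sorted population, so r mixes differences between groups with those within them, and it is a description. Highest were Map3k1, a kinase of stress-activated pathways (r = 0.78), the sialyltransferase gene St8sia6 (0.76), the stress-response gene Sesn1 (0.75), the cohesin-associated Pds5b (0.75) and the condensin subunit Smc4 (0.74). After each group's mean was taken out, r was 0.53, 0.41, 0.69, 0.62 and 0.47 in that order. Over the 8 chimera libraries it was 0.16, 0.28, 0.10, -0.31 and 0.00. Because the genes were ranked on the pulse-chase libraries, a lower r elsewhere is no finding. Most opposite were the transcription factor genes Bhlhe40 (-0.77) and Atf6 (-0.72), the latter a sensor of stress in the endoplasmic reticulum, and the phosphatase gene Ptpn1 (-0.71). Within groups these stood at -0.48, -0.42 and -0.38, and over the chimera at -0.12, -0.65 and -0.12. The ranking also uses the genotype differences of these genes, which are therefore given with no test, in labeled, ex-Foxp3 and post-tamoxifen cells in turn. Sesn1 was at -0.72, -1.22 and -0.57, close to the sizes of Nnt. St8sia6 was at -0.67, -0.94 and -0.87. Smc4 was at -0.51, -0.69 and -0.52. Smaller differences were seen in Pds5b, at -0.15, -0.34 and -0.30, and in Map3k1, at -0.19, -0.23 and -0.20. Map3k1 also lies on chromosome 13, 7.53 Mb from Nnt.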

How the data were processed

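The authors deposited unnormalized counts of reads, as integers for every gene. The submitters' processing notes name bcl2fastq 2.17.1.14, TopHat2 2.1.0 and the build mm10 (GRCm38). Libraries of total RNA from sorted cells were strand-marking SMARTer libraries, per the labels' protocols. How reads were assigned to genes, with which annotation and strand setting, was not given in the sources used here.

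Levels of single genes are CPM on TMM scaling of all 41 libraries. Sums of marker genes are CPM of total counts, without TMM scaling. Tests used edgeR 4.0.16 in R 4.3.3: its standard filter on low counts, quasi-likelihood fits with robust dispersion, two-sided tests and Benjamini-Hochberg adjustment over all genes tested, with a threshold of 0.05. One fit held the 8 chimera libraries, another the 33 pulse-chase libraries, and the last all 41 for contrasts between experiments. Each had terms for the groups only and did not pair libraries of the same number. The fits were tested on simulated data with known changes. Exact permutation tests used log2(CPM + 0.5). Gene positions come from the deposited table, and transcripts from GENCODE M21.

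Nnt and the gene lists were chosen with earlier results of these data known. Named were Nnt, its 3 nearest tested genes on each side, called genes within 5 Mb and called list members, the 2 most abundant members of a list, the 6 chimera genes of chromosome 13 outside that window with the smallest p, and the 5 genes most like and 3 least like Nnt. Substrain and marker lists were read the same way.

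The labels call the libraries biological replicates, and p-values measure the spread between them. None of 87 pairs within groups agreed within sampling noise. Deviations of same-numbered libraries correlated above 0.1 in every pair only for the labeled genotype comparison (0.102 to 0.341) and for the floxed populations (0.135 to 0.462), and in controls for ex-Foxp3 with labeled cells (0.209 to 0.338). Alternatives were RLE scaling, no filter, DESeq2 1.42.0, replicate blocks, other sets of libraries and leaving out each library.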

Additional observations from a re-analysis of the deposited data

Results flagged for a closer look

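Nnt lay less far below control in the chimera (-0.11, which did not pass) than in post-tamoxifen cells (-0.86), a contrast of 0.75 on the log2 scale. The contrast itself passed the threshold (edgeR, adjusted p = 0.0208), and this call was lost when any of 3 libraries was left out.

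Among contrasts with ex-Foxp3 cells, the chimera difference stood 1.15 above the ex-Foxp3 difference, and the within-mouse difference between ex-Foxp3 and labeled cells was lower in floxed than in control mice, a contrast of -0.57. Both contain the values on which Nnt was chosen, so their size is partly fixed by that choice and no test is given. In none of the 8 groups did a single library's Nnt level stand apart from the others of its group by Dixon's criterion.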

How the results depend on the processing

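Of 318 values of Nnt under other settings, 300 kept their direction and their side of the threshold. Many of the 318 contain the ex-Foxp3 values on which Nnt was chosen, so these counts are a description. Of the 18 that did not keep both, 11 reversed, 4 passed the threshold and 3 lost it. The chimera difference was 0.0047 without controls 3 and 4. The difference between control labeled and post-tamoxifen cells, near 0 throughout, was 0.0012 with RLE scaling, 0.0012 without a filter, 0.010 with DESeq2, 0.0054 with a replicate block by mouse, 0.013 with the compared groups alone and -0.056 to 0.095 with 1 library left out. The labeled difference passed in the fit of 41 libraries (-0.70), with DESeq2 (-0.69) and in 1 of the fits leaving out a library (-0.77 to -0.64). The remaining pass was the contrast of the ex-Foxp3 and labeled differences, -0.57 within mice. It was scored on an unadjusted permutation p and contains the values that chose Nnt, so that pass is not read as a result. The chimera contrast with post-tamoxifen cells ran from 0.65 to 0.84 with 1 library left out.

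With a replicate block, Nnt was at -0.11 in the chimera, -0.66 in labeled (adjusted p = 0.0507), -1.32 in ex-Foxp3 and -0.91 in post-tamoxifen cells, and no call of Nnt changed. Floxed number 6 has no control partner there.

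Genes called within 5 Mb of Nnt in the chimera were 1, but 2 without a filter and 0 with the replicate block, and 1 rather than 0 in labeled cells with the block. On chromosome 13 the chimera's 9 became 21 without a filter and 14 with DESeq2, the 0 of labeled cells 1 with DESeq2 and 8 with the block, the 1 of ex-Foxp3 cells 2 with DESeq2 and 10 with the block, and the 39 of post-tamoxifen cells 65 with DESeq2. In post-tamoxifen cells a 10 Mb window held 1 called gene, the block called 1 NADPH source gene, and 2 of the 4 defence genes were called without a filter and 2 with the block. Over all genes, 231 chimera calls became 396 without a filter (100 to 352 with 1 library left out), 1 labeled call became 51 with DESeq2 and 180 with the block (1 to 9), and 18 ex-Foxp3 calls became 12 without a filter, 85 with DESeq2 and 383 with the block (5 to 56). The 717 post-tamoxifen calls ran from 390 to 1147. Depth limits single libraries: at 27 Nnt reads, the 95% counting interval of floxed post-tamoxifen library 5 ran from 15.8 to 34.8 CPM.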
